A study of Bos taurus with 2 samples.

Results

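NRXN3, LRRTM4 and DCC encode receptors of the neuronal surface, and their rows are 3 of the 17846 gene rows of the count table. They were selected on their measured counts in these same cells, as leading genes of neuron clusters in an earlier clustering, so their level in neurons against other cells, with or without DLL3 and HES6, is a description and is given without a test. The cells came from bovine embryos flushed at day 25 of development that carried bovine embryonic stem cells, and the labels do not tell which cells descended from the donor cells. All cells belong to 1 group with 2 replicates, and every comparison is between classes of cells within the same suspensions, which were dissociated with papain and DNase, sorted by a gate that is not given, and run as 10x Genomics droplet libraries with 3' v3.1 chemistry. Nothing in the labels says that the replicates were separate embryos, so p-values rest on a spread between replicates that may be technical.

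Neurexins are presynaptic adhesion molecules. They bind neuroligins, leucine-rich repeat transmembrane proteins and cerebellins across the synaptic cleft, and NRXN3 is 1 of the neurexin genes. LRRTM4 encodes a postsynaptic member of the leucine-rich repeat transmembrane family, which binds heparan sulfate proteoglycans such as glypicans as well as neurexins. DCC encodes a receptor for netrin-1, known for guiding commissural axons toward the ventral midline of the spinal cord. DLL3 and HES6 are genes of the Notch and neurogenic pathways that mark newly formed neurons, and SOX2 encodes a transcription factor of neural progenitors.

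Neurons were taken as cells with a UMI (a tag that counts 1 captured RNA molecule) for 3 or more of TUBB3, DCX, ELAVL3, ELAVL4 and STMN2. Of the 949 neurons, 275 in replicate 1 and 297 in replicate 2 had no DLL3 or HES6 UMI, and 155 and 222 had at least 1. Progenitors were the 815 and 1105 other cells with a SOX2 UMI. Of the neurons, 49.0% also held a SOX2 UMI, so the classes are ranges of marker counts rather than separated types. Cells with 3 or more mesenchyme markers (50 and 111), cells with 3 or more trophoblast markers (13 and 13) and the remaining cells (631 and 672) served for comparison. The kept cells numbered 1939 and 2420, with medians of 4987 and 5704 UMIs per cell, and 6 barcodes occurred in both replicates. Median depth was 7284 and 8041 UMIs in neurons, 5611 and 6479 in progenitors, and 8066 and 9826 in mesenchyme-marker cells.

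NRXN3 stood at 1137 and 819.9 CPM (a gene's UMIs scaled to a fixed total over the summed cells) in neurons without DLL3 or HES6 UMIs, in replicates 1 and 2. It stood at 794 and 432 CPM in neurons with them, 271 and 217 CPM in the remaining cells, 77.9 and 94.5 CPM in progenitors, and 30.8 and 38.8 CPM in mesenchyme-marker cells. Each class in this order lay below the one before it in both replicates, with no overlap between neighbours. How many of all genes had no overlap between these classes was not counted. The means were 978 ± 224, 613 ± 256, 244 ± 38.0, 86.2 ± 11.7 and 34.8 ± 5.66 CPM (SD, n = 2), so the 2 neuron classes, although they did not overlap, were not far apart for their spread. Trophoblast-marker cells held no NRXN3 UMI, which allows up to 17.3 and 23.0 CPM.

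LRRTM4 had 637 and 351 UMIs in all neurons against 22 and 9 in the more numerous progenitors. Its level was 316 and 76.4 CPM in neurons without DLL3 or HES6 UMIs and 48.3 and 101 CPM in neurons with them. These classes overlapped, and the order of the 2 turned between replicates. The remaining cells had 8.56 and 31.4 CPM, progenitors 4.42 and 1.20 CPM, and mesenchyme-marker cells 6.59 and 0.945 CPM, the last from 3 and 1 UMIs. Progenitors and mesenchyme-marker cells could not be told apart at this depth. Trophoblast-marker cells held 0 and 1 UMIs.

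DCC had the opposite order among neurons. It stood at 498 and 601 CPM in neurons with DLL3 or HES6 UMIs and at 311 and 159 CPM in neurons without them. These did not overlap, and here too the number of all genes without overlap was not counted. The remaining cells had 79.9 and 72.1 CPM, progenitors 35.5 and 25.8 CPM, and mesenchyme-marker cells 11.0 and 21.7 CPM. The means were 549 ± 73.0, 235 ± 108, 76.0 ± 5.53, 30.7 ± 6.92 and 16.4 ± 7.61 CPM (SD, n = 2). Progenitors lay above mesenchyme-marker cells in both replicates, but not in cells with under 10% of their UMIs from ribosomal protein genes. There DCC had 42.8 ± 8.72 CPM in progenitors and 58.6 ± 6.60 CPM in the 14 and 19 mesenchyme-marker cells. At 10% or more it had 19.5 ± 1.40 and 9.33 ± 13.2 CPM in the same order. No DCC UMI was found in trophoblast-marker cells, with the same limits as for NRXN3.

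**Figure D1:**
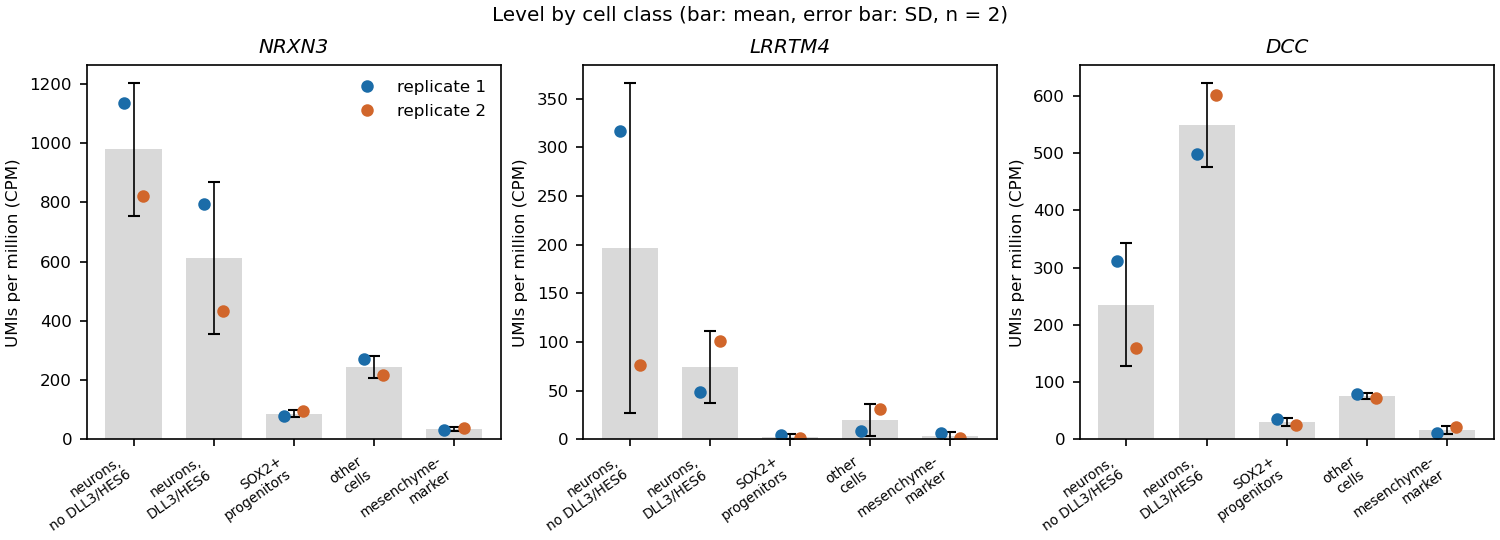
Level of NRXN3, LRRTM4 and DCC in CPM by cell class, with bars for the mean, error bars for the SD of 2 replicates and points for each replicate. NRXN3 is higher in neurons without DLL3 or HES6 UMIs (1137 and 819.9 CPM) than with them (794 and 432 CPM), DCC is higher in neurons with them (498 and 601 against 311 and 159 CPM), and the LRRTM4 replicates cross.

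The share of cells with a UMI depends on depth, so each cell was also thinned to 2000 UMIs. In thinned neurons, 30.6% and 25.5% had a UMI of NRXN3, 13.4% and 6.52% of LRRTM4, and 29.8% and 25.3% of DCC. Without thinning the shares were 39.1% and 38.9%, 18.8% and 11.6%, and 42.3% and 41.8% in the same order. Thinned mesenchyme-marker cells, taken as a level that free RNA in the suspension can reach, gave 2.13% and 9.43% for NRXN3, the same shares for DCC, and none for LRRTM4. Thinned progenitors had 10.8% and 13.6% for NRXN3, above that level in both replicates. For DCC they had 5.07% and 4.76%, above that level in replicate 1 and below it in replicate 2, so no expression of DCC in progenitors is read from the share.

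Expressed as fitted log2 fold changes between both neuron sums and progenitors, NRXN3 was higher in neurons by 3.27 (2.79 and 3.81 when 1 replicate was left out), LRRTM4 by 5.72 (5.00 and 6.29) and DCC by 3.74 (3.67 and 3.72). These values describe how the genes were chosen. They were smaller among cells that drew 10% or more of their UMIs from ribosomal protein genes, at 1.48, 4.16 and 2.88, and with each cell's count capped at 10 UMIs they were 1.86, 5.05 and 3.24. In cells with 0, 1, 2, 3, 4 and 5 of the neuron markers, whatever their SOX2 count, DCC was higher at each step in both replicates. It went from 26.0 to 39.6, 86.1, 252, 426 and 514 CPM in replicate 1. In replicate 2 it went from 19.4 to 34.6, 60.1, 192, 400.4 and 494 CPM. NRXN3 had 267 and 167 CPM in cells with 2 markers, just outside the neuron rule, and 653 and 451 CPM in cells with 3, just inside it. LRRTM4 had 9.94 and 21.7 CPM with 2 markers, and 85.2 and 56.0 CPM with 3. Neurons without a SOX2 UMI had more of all 3 genes than neurons with one: 1767 and 1254 against 318 and 187 CPM for NRXN3, 339 and 174 against 88.4 and 22.2 CPM for LRRTM4, and 522 and 489 against 272 and 261 CPM for DCC.

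The RNA of each gene was unevenly spread over neurons. The 10 neurons with the most NRXN3 UMIs held 47.2% and 38.4% of all its UMIs in neurons, and the richest single cell held 313 and 191. For LRRTM4 the 10 richest neurons held 59.2% and 59.5%, with up to 178 and 42 UMIs in a cell. DCC was spread more evenly, with 27.4% and 25.1% in the 10 richest neurons and up to 62 and 48 UMIs in a cell. Without those 10 cells per gene and replicate, the level in neurons was 538 and 404 CPM for NRXN3, 85.7 and 36.1 CPM for LRRTM4, and 289 and 275 CPM for DCC, still above progenitors in each case. Over all neurons LRRTM4 was lower in replicate 2 (87.4 CPM) than in replicate 1 (205 CPM), and with 1 sample on each side this difference has no replicate check.

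Most cells with 10 or more UMIs of a gene were neurons. For NRXN3, 61 of 77 such cells in replicate 1 and 61 of 82 in replicate 2 were neurons. For LRRTM4 it was 16 of 16 and 11 of 13, and for DCC 38 of 46 and 41 of 45. The LRRTM4-rich neurons all had a ribosomal protein share under 10%, and in that stratum 10 of the 16 and 7 of the 11 also had 10 or more NRXN3 UMIs, or 62.5% and 63.6%. The same 10 and 7 cells were 18.9% and 15.6% of the NRXN3-rich neurons, and NRXN3-rich cells made up 22.1% and 20.7% of all neurons in the stratum. Neurons rich in both DCC and NRXN3 numbered 5 in each replicate, or 18.5% and 20.0% of the DCC-rich neurons in the stratum, close to the share of NRXN3-rich cells among all its neurons. By any UMI in thinned neurons the 2 genes met more often, with both in 67 and 46 neurons where the product of their shares gives 38.2 and 32.6, and the number was above the product in both strata and both replicates. Of the DCC-rich neurons 20 of 38 and 37 of 41 held a DLL3 or HES6 UMI, against 17 of 61 and 23 of 61 of the NRXN3-rich and 0 of 16 and 4 of 11 of the LRRTM4-rich.

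Across the number of DLL3 plus HES6 UMIs in a neuron the 3 genes took different courses. NRXN3 stood at 77.0 and 56.2 CPM in neurons with 6 or more, against 1137 and 819.9 CPM in those with 0, with 1333 and 578 CPM at 1 UMI, 616 and 376 at 2, and 317 and 654 at 3 to 5. DCC stood at 800.4 and 857 CPM in neurons with 6 or more, at 262 and 576 with 1, 393 and 483 with 2, and 876 and 401 with 3 to 5, against 311 and 159 CPM with 0. The 2 replicates agreed on the ends of the range and not on the order of the middle bins, which held 27 to 108 neurons each. LRRTM4 had no common course, with 34.2 and 47.2 CPM at 6 or more UMIs and its highest value at 0 in replicate 1 (316 CPM) and at 2 in replicate 2 (195 CPM). Neurons with 6 or more such UMIs were also deeper, with medians of 9928 and 10984 UMIs against 5997 and 7690 in those with 0.

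**Figure D2:**
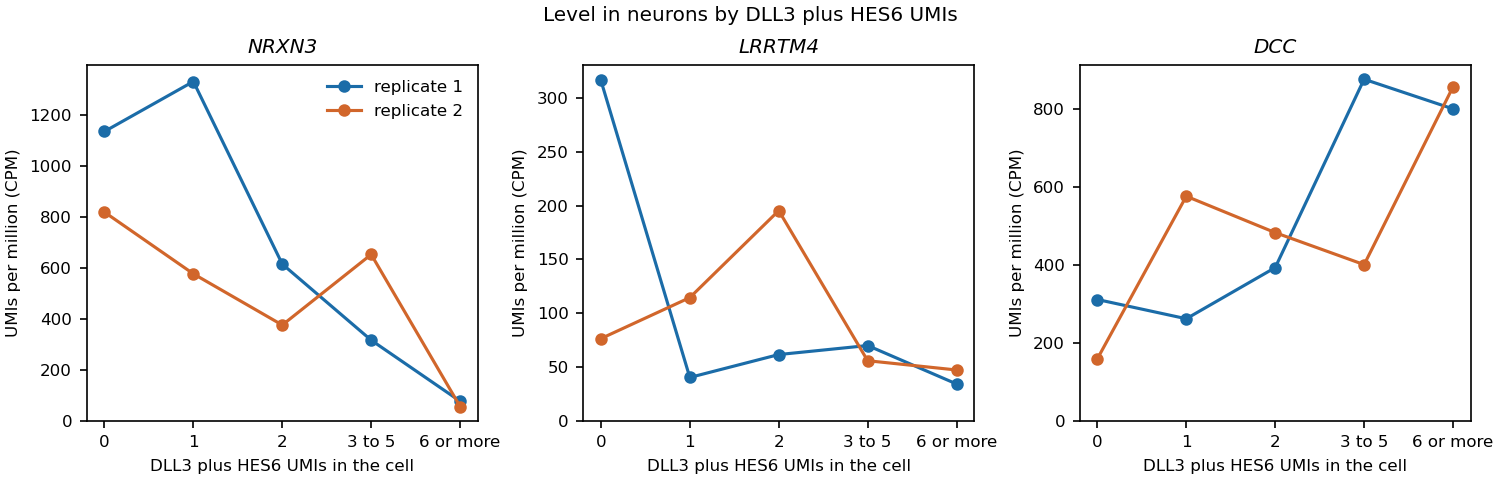
Level of each gene in CPM in neurons binned by the DLL3 plus HES6 UMIs of the cell, 1 line per replicate. NRXN3 is at 77.0 and 56.2 CPM in the bin of 6 or more, where DCC is at 800.4 and 857 CPM.

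As fitted log2 fold changes of neurons without against neurons with DLL3 or HES6 UMIs, NRXN3 was at 0.65 (0.47 and 0.87 in the replicates), DCC at -1.35 (-0.72 and -1.98), and LRRTM4 at 1.01 with opposite signs in the replicates (2.66 in replicate 1 and -0.46 in replicate 2). With 2 or more UMIs required of the DLL3 or HES6 neurons, NRXN3 was at 1.42. Within strata of ribosomal protein share the pictures differed. Under 10%, NRXN3 stood at 2006 and 2136 CPM in neurons without and 1712 and 689 CPM in neurons with DLL3 or HES6 UMIs. At 10% or more the order was the other way round, with 142 and 191 CPM without and 239 and 323 CPM with them. A few cells carry much of this: the 10 richest neurons held 90.1% and 72.6% of the NRXN3 UMIs in the class with DLL3 or HES6, and without the 10 richest of each class the levels were 46.2 and 73.6 CPM against 27.0 and 94.7 CPM, so that the order turned in replicate 1 and stayed in replicate 2. The share of neurons with an NRXN3 UMI in this stratum was 32.1% and 38.1% without and 26.2% and 32.1% with DLL3 or HES6 UMIs, or 20.0% and 18.8% against 15.5% and 20.9% when thinned. By CPM, DCC kept its order in both strata, at 556 and 345 against 778 and 1122 CPM under 10%, and at 30.7 and 70.6 against 329 and 381 CPM at 10% or more. By the share of thinned neurons with a DCC UMI the classes overlapped under 10%, at 35.2 ± 8.54% without and 41.0 ± 5.43% with DLL3 or HES6 UMIs (SD, n = 2). At 10% or more these shares were 10.1 ± 0.551% and 27.3 ± 1.53%. The median ribosomal protein share was 5.93% and 12.2% in neurons without and 11.0% and 12.5% in neurons with DLL3 or HES6 UMIs, and its part in the overall difference was not tested.

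The ribosomal protein share, the percentage of a cell's UMIs from 82 ribosomal protein genes, separated the neurons further. NRXN3 stood at 1908 and 1511 CPM in neurons under 10% and at 189 and 252 CPM in neurons at 10% or more. LRRTM4 stood at 402 and 231 CPM against 31.6 and 22.4 CPM, and DCC at 630.0 and 680.2 CPM against 175 and 214 CPM. The 2 strata of each gene did not overlap, in a comparison where 57.0% of 12563 genes tested passed edgeR at an adjusted p under 0.05. How many of all genes had no overlap was not counted. The fitted log2 fold change of high against low share in neurons was -2.50 (SE 0.23) for NRXN3, -3.05 (SE 0.15) for LRRTM4 and -1.27 (SE 0.10) for DCC, and leaving out 1 replicate gave -2.09 and -2.90, -2.87 and -3.23, and -1.18 and -1.40. Because the clusters that these genes led were drawn from the same cells, and how far those clusters followed the ribosomal protein share was not measured here, these values are given as a description too. With ribosomal protein UMIs taken out of the total, NRXN3 was at 1979 and 1574 CPM against 238 and 319 CPM. Cells thinned to 2000 UMIs gave shares with a UMI of 40.9% and 33.8% against 18.0% and 19.7% for NRXN3, 20.4% and 11.6% against 4.76% and 3.01% for LRRTM4, and 40.0% and 35.7% against 17.5% and 18.1% for DCC.

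In finer bins the 3 genes differed in course. NRXN3 went from 3148 and 1867 CPM in neurons under 2% to 81.5 and 52.5 CPM in neurons at 20% or more. Its fall was not steady in replicate 2, with 651 CPM at 2 to 5% and 1603 CPM at 5 to 10%. LRRTM4 went from 634 and 385 to 2.51 and 11.4 CPM, the last from 2 and 17 UMIs, and DCC from 884 and 1104 to 177 and 172 CPM. DCC had 174 and 263 CPM at 10 to 20%, close to its level at 20% or more in replicate 1. NRXN3 had 289 and 483 CPM and LRRTM4 58.8 and 35.2 CPM at 10 to 20%, well above their levels at 20% or more.

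**Figure D3:**
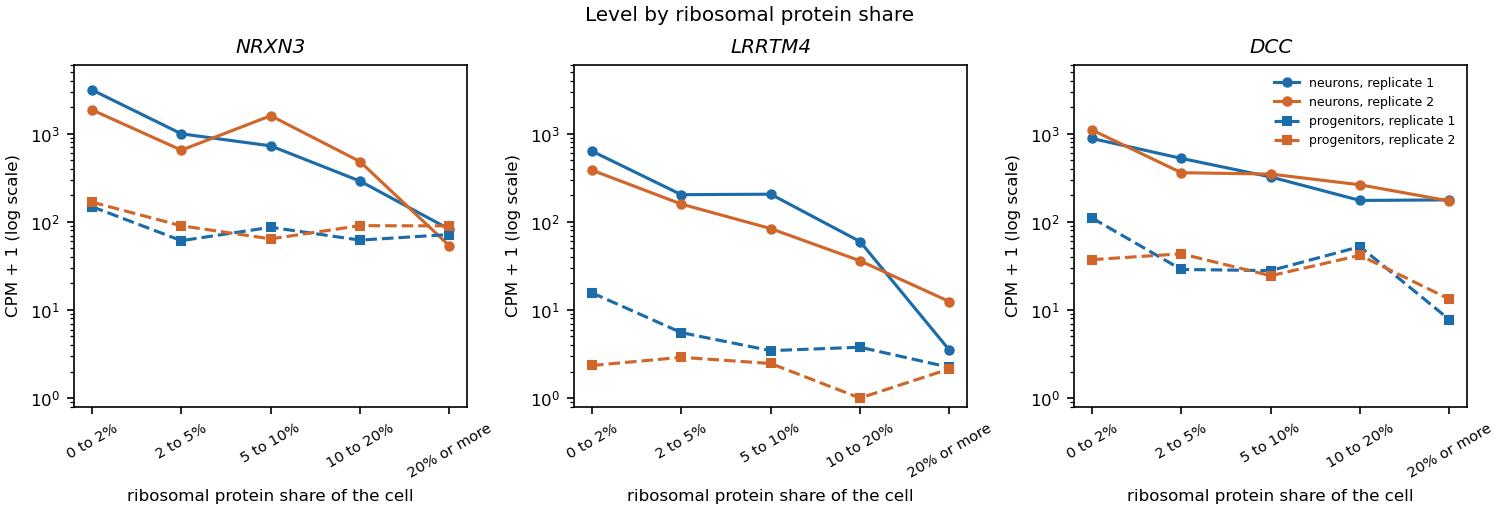
Level of each gene as CPM + 1 on a log axis by ribosomal protein share of the cell, with solid lines for neurons, dashed lines for progenitors and a colour per replicate. In neurons NRXN3 goes from 3148 and 1867 CPM under 2% to 81.5 and 52.5 CPM at 20% or more, while in progenitors it stays between 60.2 and 167 CPM in every bin. In replicate 2 the NRXN3 line of neurons lies at 651 CPM at 2 to 5% and at 1603 CPM at 5 to 10%.

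The remaining cells also had less of each gene at high share. Their means were 332 ± 18.1 CPM under 10% and 51.4 ± 22.1 CPM at 10% or more for NRXN3 (SD, n = 2). LRRTM4 had 29.0 ± 26.1 and 3.06 ± 0.0158 CPM there, and DCC 103 ± 8.06 and 20.8 ± 17.9 CPM. In mesenchyme-marker cells DCC had 58.6 ± 6.60 and 9.33 ± 13.2 CPM, and NRXN3 27.0 ± 38.1 and 37.3 ± 0.0547 CPM. In progenitors the same split gave smaller differences than in neurons. NRXN3 stood at 86.9 and 102 CPM under 10% and at 67.8 and 89.1 CPM at 10% or more. Its fitted log2 fold change was 0.40 (SE 0.26), and it turned to -0.26 with plain library totals, the scale on which the CPM values are given. DCC stood at 48.9 and 36.6 against 20.5 and 18.5 CPM, with a log2 fold change of -0.49 (SE 0.17). Of all 12563 genes tested in progenitors, 66.4% passed, 33.4% as higher and 32.9% as lower. The DCC value was -0.35 with cells of at least 2000 UMIs, -0.15 with thinned cells and -0.37 with progenitors that held no neuron marker. With plain library totals DCC was at -1.15, a scaling that shifted the median of all genes by -0.657 in this comparison. LRRTM4 rested on 18 and 5 UMIs against 4 and 4, at -1.02 (SE 0.55). Progenitors were among the cells from which the members were chosen, so these values are a description too. The difference between the classes, neurons minus progenitors, was -2.90 (SE 0.34) for NRXN3, -2.03 (SE 0.69) for LRRTM4 and -0.78 (SE 0.20) for DCC, again as a description, and for LRRTM4 it turned to 1.12 in thinned cells, where high-share progenitors had no UMI left. For DCC the difference was -0.32 with neurons of 4 or more markers.

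Other measures moved with the ribosomal protein share in neurons, and their part in the levels above was not tested. Median depth was 5834 and 5461 UMIs under 10% and 9262 and 9516 at 10% or more. The progenitor markers PAX6, SOX1, HES5, NES, FABP7 and VIM, all 6 detected in each stratum, summed to 949 and 1140 CPM under 10% and to 3510 and 3383 CPM at 10% or more, and 5 of the 6 were higher at high share. The 8 mesenchyme markers summed to 77.0 and 83.9 CPM against 140 and 377 CPM, and 4 of the 7 tested were higher. The 6 neural crest markers summed to 133 and 204 against 128 and 125 CPM, with SOX10 and FOXD3 at 0 in both high-share sums, and the 8 trophoblast markers to at most 8.50 CPM in any neuron stratum. The 7 erythroid markers summed to 574 to 662 CPM in every neuron stratum, and the 6 endothelium markers to at most 18.6 CPM. Without neurons and progenitors that held 3 or more mesenchyme or trophoblast markers, the fitted values in neurons were -2.44, -2.97 and -1.20. With those cells the values were -2.50, -3.05 and -1.27. Erythroid markers reached 11344 CPM in the high-share progenitors of replicate 2, against 559 to 895 CPM in the other progenitor sums.

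The genes most like each member were ranked by Pearson's r of log2(CPM + 10) over 18 sums of class, ribosomal stratum and replicate, among 10653 genes. The sums share libraries and cell classes, so r is a description. NRXN3 was followed most closely by LOC101902435 (r = 0.971), ANK3 (0.969), CCSER1 (0.964), ERC2 (0.963) and PAK5 (0.962). ANK3 encodes ankyrin-G of the axon initial segment and ERC2 a protein of the presynaptic active zone. LRRTM4 was followed by SCN2A (0.946), a neuronal sodium channel, IQSEC3 (0.943), RUNDC3B (0.941), CCDC175 (0.941) and LOC112449524 (0.938). DCC was followed by GRIK2 (0.982), a kainate receptor subunit, SRRM4 (0.977), a neuronal splicing regulator, LOC112444158 (0.974) and FRMD5 (0.972). Among themselves the members had r = 0.875 for NRXN3 and LRRTM4, 0.896 for NRXN3 and DCC, and 0.835 for LRRTM4 and DCC. Many other genes were closer to each member. In likeness to NRXN3, LRRTM4 ranked 410 and DCC 265. For LRRTM4, NRXN3 ranked 105 and DCC 217, and for DCC, NRXN3 ranked 264 and LRRTM4 648.

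Within neurons under 10% ribosomal protein share, cells rich in a member (10 or more UMIs) were set beside cells with none, over a list of transcription factors of neuron subtypes. The factors named here were picked after their values were seen, and none was tested. NRXN3-rich neurons held 15 and 18 UMIs of LHX1, a LIM homeobox gene of spinal and hindbrain interneurons, against 0 and 0 in neurons without NRXN3. DCC-rich neurons held more EYA2 (504 and 969 against 51.6 and 22.9 CPM), ST18 (282 and 547 against 12.5 and 12.3 CPM) and EBF2 (277 and 451 against 14.1 and 24.7 CPM). EBF1, ONECUT1, ONECUT2 and MYT1L were higher in neurons rich in each of the 3 members than in their counterparts, in both replicates. For ONECUT1 and LRRTM4 the difference was slight in replicate 2, at 98.9 against 86.0 CPM, the first from 9 UMIs. MYT1L stood at 601 and 758 against 184 and 224 CPM for LRRTM4 (16 and 11 rich cells), 380.2 and 398 against 208 and 249.7 CPM for NRXN3, and 387 and 370 against 141 and 167 CPM for DCC.

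**Figure D4:**
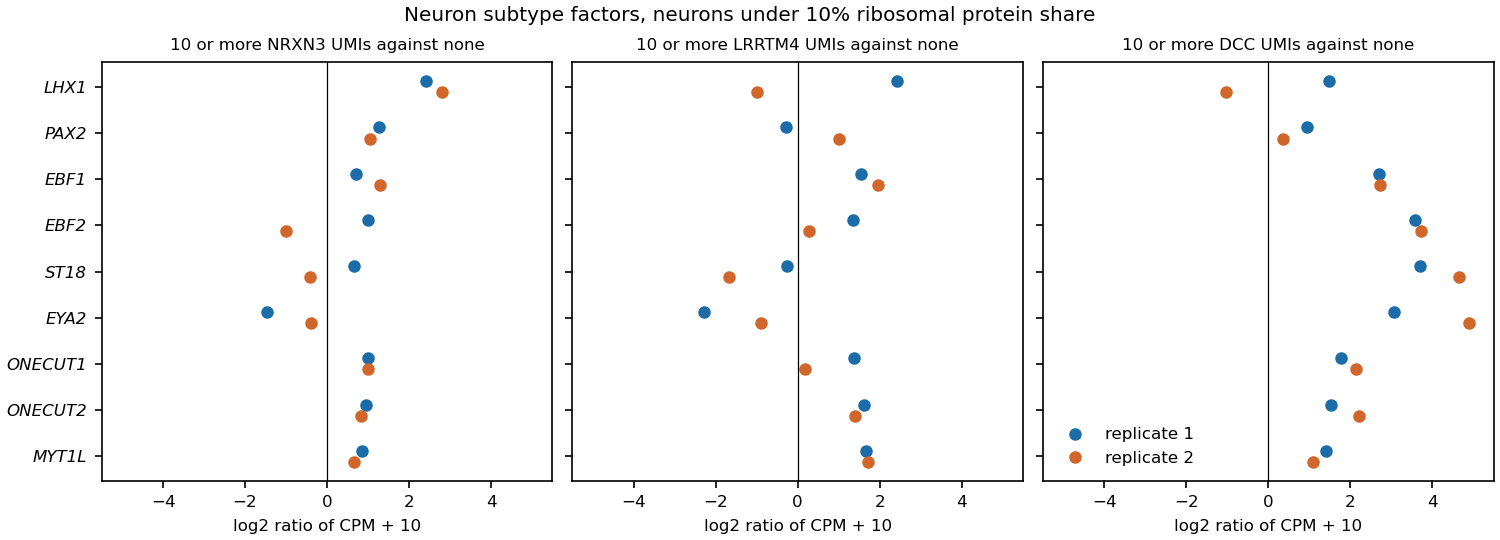
Log2 ratio of CPM + 10 for 9 transcription factors between neurons with 10 or more UMIs of a member and neurons with none, under 10% ribosomal protein share, 1 point per replicate. LHX1 lies right of 0 for NRXN3, and EYA2, ST18 and EBF2 lie right of 0 for DCC in both replicates.

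Partners and relatives of the members were tested over all genes in the same fits, with edgeR and Benjamini-Hochberg adjustment at 0.05. Of 11856 genes tested between neurons and progenitors, 52.4% passed, with 27.0% called higher and 25.4% lower in neurons (3202 and 3010 genes, and 2310 and 4310 with plain library totals, which lowered the median of all genes by 0.173 on the log2 scale). On the neurexin side of the synapse, 15 of 18 tested genes other than NRXN3 were higher in neurons and 0 lower, with a median log2 fold change of 0.69 beside 0.02 over all genes. With plain library totals it was 11 higher and 1 lower. NRXN2 rose by 1.48 on the log2 scale (SE 0.16, adjusted p = 2.68e-08) and stood at 40.3 and 37.1 CPM in neurons against 18.5 and 13.6 CPM in progenitors. CNTNAP5, a contactin-associated member of the neurexin superfamily, had the largest change of the list, 5.94 (SE 0.18, adjusted p = 3.22e-12).

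Of 28 tested postsynaptic and secreted partners other than LRRTM4, 18 were higher in neurons and 4 lower, with a median of 0.99. Among the neuroligins, which bind neurexins from the postsynaptic side, NLGN4X rose by 2.52 (SE 0.09, adjusted p = 9.2e-17), NLGN1 by 1.16 (SE 0.16, adjusted p = 0.00152), and NLGN3 from 5.82 and 9.34 to 17.4 and 20.9 CPM (adjusted p = 5.67e-06). NLGN2, known from inhibitory synapses, was at 35.5 and 33.9 CPM in neurons and 42.2 and 35.1 CPM in progenitors (log2 fold change 0.02, SE 0.14, adjusted p = 0.895). Of the relatives of LRRTM4, LRRTM3 stood at 87.0 and 66.7 CPM in neurons and 7.63 and 9.48 CPM in progenitors (3.25, SE 0.55, adjusted p = 0.0294), LRRTM2 at 9.99 and 9.96 against 9.24 and 4.94 CPM (0.74, SE 0.28, adjusted p = 0.0311), and LRRTM1 at 5.80 and 2.24 CPM in neurons, too few counts to be tested. NTRK3, which encodes the neurotrophin receptor TrkC, rose by 5.02 (SE 0.23, adjusted p = 3.02e-15) and CBLN2, a secreted cerebellin that binds neurexins, by 3.98 (SE 0.41, adjusted p = 1.97e-08). SLITRK6 fell by 3.14 (SE 0.35, adjusted p = 6.39e-08).

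The glypicans and syndecans, heparan sulfate proteoglycans of the cell surface, were divided, with 2 of 9 higher and 4 lower in neurons and a median of -0.17. GPC1 rose by 0.88 (SE 0.14, adjusted p = 1.04e-05) and GPC2 by 1.92 (SE 0.34, adjusted p = 5.42e-05). GPC4, a glypican that binds LRRTM4 in rodents, stood at 52.6 and 39.8 CPM in neurons and 107 and 92.9 CPM in progenitors, and fell by 1.33 (SE 0.12, adjusted p = 2.93e-09), and GPC6 fell by 0.71 (SE 0.08, adjusted p = 4.63e-08). GPC3 (-0.17, adjusted p = 0.498) and GPC5 (0.59, adjusted p = 0.0655) did not pass the test.

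Among netrin ligands and receptors other than DCC, 4 of 11 were higher in neurons and 3 lower, with a median of 0.02. The ligand NTN1 stood at 50.6 and 45.8 CPM in neurons and 75.1 and 75.7 CPM in progenitors, and fell by 0.51 (SE 0.12, adjusted p = 0.00132). NEO1, the relative of DCC that also binds netrins, stood at 214 and 196 CPM in neurons against 250.0 and 228 CPM and did not pass the test (-0.08, SE 0.08, adjusted p = 0.449). Of the UNC5 genes, which encode repulsive netrin receptors, UNC5D rose by 1.78 (SE 0.22, adjusted p = 0.00331), UNC5C fell by 0.31 (SE 0.09, adjusted p = 0.00455), UNC5B did not pass (0.25, adjusted p = 0.143) and UNC5A had 2.26 and 2.24 CPM in neurons, too few counts to be tested. DSCAM, an adhesion molecule that binds netrin-1, rose by 1.31 (SE 0.12, adjusted p = 1.29e-06), DSCAML1 by 3.41 (SE 0.32, adjusted p = 3.57e-09), and DRAXIN, a secreted ligand of DCC, by 2.23 (SE 0.19, adjusted p = 6.48e-10). Among cells of 10% or more ribosomal protein UMIs alone, DSCAM turned to -0.20. Of 22 effectors of netrin receptors 10 were higher and 4 lower. TRIM67 (2.92, SE 0.29, adjusted p = 1.12e-08) and the kinase gene PAK3 (2.18, SE 0.10, adjusted p = 5.46e-15) rose most.

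Between neurons without and with DLL3 or HES6 UMIs, 6.45% of 11856 genes were called higher and 5.26% lower (765 and 624 genes; 1003 and 524 with plain library totals, 207 and 268 with DESeq2). NRXN2 (-0.35, adjusted p = 0.263) did not pass the test, and 4 of 18 genes on the neurexin side were higher and 1 lower. Of the partner list 4 of 28 were higher and 0 lower. NLGN1 (0.61, adjusted p = 0.1), LRRTM2 (-0.15, adjusted p = 0.856) and LRRTM3 (0.29, adjusted p = 0.823) did not pass. GPC4 rose by 1.78 (SE 0.20, adjusted p = 1.1e-06) and GPC6 by 1.02 (SE 0.10, adjusted p = 1.75e-07) in neurons without these UMIs, nearer to their level in progenitors. In the netrin list DSCAM (1.06, SE 0.14, adjusted p = 0.00036) was higher, and DRAXIN, at 19.8 and 23.2 CPM without against 48.3 and 49.5 CPM with DLL3 or HES6 UMIs, was lower (-1.23, SE 0.22, adjusted p = 0.000361). PAK3 (-0.76, SE 0.11, adjusted p = 4.59e-05) and MAP1B (-0.57, SE 0.08, adjusted p = 2.94e-05), which encodes a microtubule protein that acts in netrin signalling, were lower as well.

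By ribosomal protein share within neurons, 57.0% of 12563 genes passed, with 30.4% higher at 10% or more and 26.6% lower (3817 and 3348 genes, and 2483 and 5454 with plain library totals, which lowered the median of all genes by 0.466). The neurexin side had 1 of 18 higher and 15 lower, with a median of -0.78 beside 0.02 over all genes. The partner list had 0 of 30 higher and 16 lower, with a median of -0.84. CNTNAP2 fell by 1.89 (SE 0.10, adjusted p = 3.35e-20) and NLGN1 by 1.35 (SE 0.20, adjusted p = 0.00193). MDGA2, whose product binds neuroligins, fell by 2.75 (SE 0.13, adjusted p = 8.15e-14). NRXN2 did not pass (-0.33, adjusted p = 0.164), and PTPRF, a receptor phosphatase, rose by 0.67 (SE 0.17, adjusted p = 0.000972).

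The netrin list was divided by ribosomal protein share in neurons, with 3 of 11 higher and 5 lower, or 0 and 8 with plain library totals. DSCAM fell by 1.63 (SE 0.11, adjusted p = 1.2e-12), DSCAML1 by 1.45 (SE 0.35, adjusted p = 0.000522), NEO1 by 0.47 (SE 0.10, adjusted p = 8.02e-05) and UNC5C by 0.33 (SE 0.09, adjusted p = 0.00182). DRAXIN rose by 0.56 (SE 0.23, adjusted p = 0.0352) and UNC5B by 0.54 (SE 0.23, adjusted p = 0.0481), and NTN1 rose by 0.45 (SE 0.18, adjusted p = 0.0287), which turned to -0.02 with plain library totals. UNC5D did not pass (-0.61, adjusted p = 0.122). The DSCAM contrast differed between the classes by -3.12 (SE 0.16, adjusted p = 2.81e-13), with DSCAM higher at high share in progenitors by 1.49 (SE 0.12, adjusted p = 1.05e-11). In that difference 7.43% of genes were called lower and 3.39% higher (933 and 426 genes; 535 and 1115 with plain library totals, 530 and 55 with DESeq2). Of the glypicans and syndecans, 2 of 10 were higher and 1 lower.

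**Figure D5:**
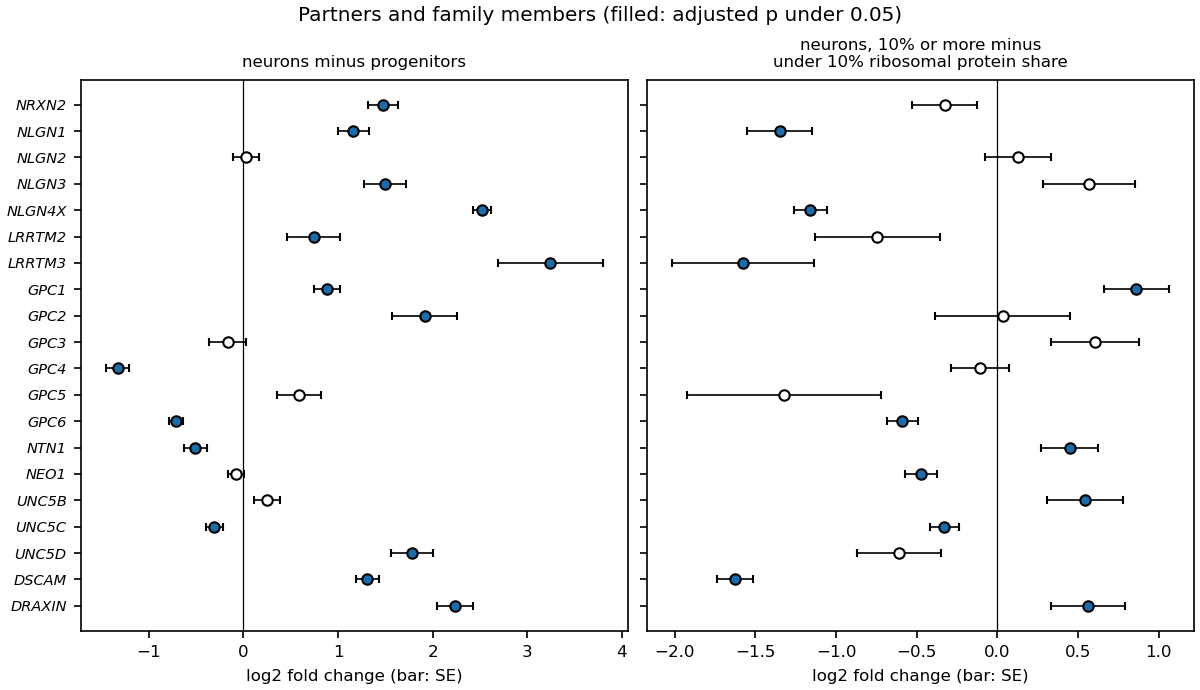
Log2 fold change with its SE for 20 partners and relatives of the members, between neurons and progenitors (left) and between neurons of high and low ribosomal protein share (right), with filled points where the adjusted p is under 0.05. DSCAM is at 1.31 on the left and -1.63 on the right, and GPC4 and GPC6 lie left of 0 between neurons and progenitors, at -1.33 and -0.71.

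Genes of the synapse more widely were tested in the same contrasts. Of 25 tested presynaptic release genes 20 were higher in neurons than in progenitors and 1 lower (median 1.62), and of 24 postsynaptic receptors and scaffolds 18 were higher and 2 lower (median 0.87), beside 27.0% and 25.4% of all genes. UNC13A, which primes synaptic vesicles, rose by 4.59 (SE 0.28, adjusted p = 1.4e-12) and SV2C, a vesicle protein gene, by 4.44 (SE 0.39, adjusted p = 6.11e-09). GRIA2, an AMPA receptor subunit, rose by 4.46 (SE 0.15, adjusted p = 8.05e-18). At high ribosomal protein share in neurons 2 of 27 release genes were higher and 13 lower, and 0 of 24 postsynaptic genes were higher and 17 lower, beside 30.4% and 26.6% of all genes, with GRIA4 at -2.03 (SE 0.32, adjusted p = 0.0107).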

How the data were processed

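The authors deposited unnormalized UMI counts of each gene in each cell for 2 replicates of 1 group. Per the submitters' processing notes, Cell Ranger, the bosTau9 build, R 4.1.2 and Seurat 4.3.0 were used, while the labels give no annotation and no Cell Ranger version. Deposited cells had 201 to 3999 detected genes and at most 4.98% mitochondrial UMIs, so cells had been filtered before deposit. Replicates 1 and 2 held 1973 and 2464 cells and 11182089 and 15427708 UMIs. They were counted as 2 samples, as labelled. Their gene totals differed by a chi-square of 14.9 per degree of freedom over 15040 genes. That statistic takes UMIs as independent draws, which UMIs of 1 cell are not, so it cannot tell separate embryos from parts of 1 suspension. Of the gene symbols 17337 were found in a RefSeq table of another assembly, used for names only. There, NRXN3 is overlapped by 2 long noncoding RNA genes and DCC by 1, none a row of the count table, so reads of these could not be told apart.

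Cells with 500 or more genes and under 20% mitochondrial UMIs were kept, and no doublet caller was run. Cells were classed by marker UMIs as given in the report, with mesenchyme- and trophoblast-marker cells set aside unless they met the neuron or progenitor rule, and counts were summed per class and replicate. 2 fits were made with edgeR 4.0.16 in R 4.3.3 (TMM, filterByExpr, robust quasi-likelihood test, replicate as a block, Benjamini-Hochberg over all genes): 1 over 6 sums, for neurons with and without DLL3 or HES6 UMIs and progenitors, and 1 over 8 sums, for neurons and progenitors each split at a ribosomal protein share of 10%. Each gene had 2 and 3 residual degrees of freedom, and a median of 21.7 and 36.7 were lent by the spread pooled over genes. The block follows the design, since sums of 1 number come from 1 suspension. CPM use the total UMIs of a sum, while fitted values are TMM-scaled, and limits for a count of 0 use 3 counts and cover counting error only. Levels of different genes are not corrected for gene length. On simulated counts the first fit recovered 92 of 100 genes changed 2-fold and 97 of 100 changed 4-fold, with 7 false calls among 11627 genes, and the second, for ribosomal protein share in neurons, 71 and 94 of 100, with 7 false calls among 12233. The simulation gave all sums 1 mean profile, with no replicate effect, a spread pooled over genes and far fewer changed genes than were called here. It therefore does not show how reliable the reported calls are.

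The members, the gene lists and the comparisons were chosen with earlier results of these data known. The members' values between neurons and progenitors, by DLL3 or HES6 and by ribosomal protein share carry no p for that reason. Those by ribosomal protein share in neurons and in progenitors, and their difference, were planned with a test. They are given without one because they may overlap with how the members were chosen. Other genes were named by a rule: relatives and direct partners of the members whatever their test, the 2 called genes with the largest change per list, direction and comparison, and the 5 genes most like each member; a few more of the called list genes were picked after their values were seen. Some genes that the rule covers are not reported here. Alternatives were DESeq2 1.42.0, other filters, marker and share thresholds, depth and leaving out each replicate. Library totals without TMM, leaving out ribosomal protein genes, capping counts per cell and leaving out cells with mesenchyme or trophoblast markers were chosen after seeing the data.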

Additional observations from a re-analysis of the deposited data

Results flagged for a closer look

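The fitted difference of the 2 ribosomal protein share contrasts, neurons minus progenitors, was -2.9 for NRXN3 and -0.78 for DCC on the log2 scale. The 2 genes stand here because edgeR's interaction term picked them. LRRTM4, at -2.03, was not picked, although its difference was larger in size than that of DCC. The term contains the neuron contrast, which may overlap with how the members were chosen. It is therefore no test of them, and the differences are given as values alone. NRXN3 went from 1908 and 1511 to 189 and 252 CPM at high share in neurons and moved from 86.9 and 102 to 67.8 and 89.1 CPM in progenitors. DCC went from 630.0 and 680.2 to 175 and 214 CPM in neurons and from 48.9 and 36.6 to 20.5 and 18.5 CPM in progenitors. The remaining cells, which are not part of the term, also had less of both genes at high share. With the share split at 5%, the NRXN3 difference was -2.22. That of DCC was -0.32 with neurons of 4 or more markers and -0.59 with plain library totals. It was -0.61 without cells of 3 or more mesenchyme or trophoblast markers, and -0.93 with progenitors of no neuron marker.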

How the results depend on the processing

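The counts of genes called depended on the tool and depth. DESeq2 called 3207 genes between neurons and progenitors (6212 with edgeR), 475 between neurons without and with DLL3 or HES6 UMIs (1389) and 585 in the interaction (1359). Cells thinned to 2000 UMIs gave 525 for DLL3 or HES6, 5393 for ribosomal protein share in progenitors (8337), 4417 in neurons (7165) and 352 in the interaction. Among cells of 10% or more alone 2953 genes were called between neurons and progenitors, and among cells under 10% alone 388 for DLL3 or HES6, where neurons with 4 or more markers gave 428 and a minimum of 2 DLL3 plus HES6 UMIs gave 2199. The interaction had 369 calls with progenitors of no neuron marker and 788 with the share split at 5%. Without the replicate block the DLL3 or HES6 comparison had 643 calls in place of 1389. In that fit no other count moved by over 1.5 times (5168 between neurons and progenitors, 8339, 7203 and 1246 in the other 3).

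Between neurons and progenitors, NRXN3 kept its sign in all 15 alternatives, with 1.48 and 4.24 in cells of 10% or more and under 10% ribosomal protein share and 1.86 with counts capped at 10 UMIs per cell. LRRTM4 was at 4.16 in cells of 10% or more. DCC ranged from 2.88 (10% or more) over 3.24 (capped), 3.56 (plain totals), 3.80 (cells of 2000 UMIs), 3.80 (no mesenchyme or trophoblast markers), 3.84 (thinned), 4.01 (4 or more markers) and 4.18 (under 10%) to 4.34 (progenitors of no neuron marker). By DLL3 or HES6, NRXN3 was at 1.42 with a minimum of 2 UMIs. By ribosomal protein share in progenitors, where the members carry no call, NRXN3 (0.40) was at 0.41 without the low-count filter and 0.47 capped. It was at 1.00 with progenitors of no neuron marker, and turned to -0.26 with plain totals. LRRTM4 (-1.02) was at -1.65 (plain totals), -3.93 (thinned) and -1.36 (without mesenchyme or trophoblast markers). DCC (-0.49) was at -0.35 (2000 UMIs), -0.15 (thinned) and -0.37 (no neuron marker).

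In the interaction, where the members carry no call, LRRTM4 (-2.03) was at -2.08 with DESeq2, -2.04 without the filter and -2.06 in cells of 2000 UMIs, and turned to 1.12 when thinned. DCC (-0.78) was at -0.59 (plain totals), -0.32 (4 or more markers), -0.61 (no mesenchyme or trophoblast markers) and -0.93 (no neuron marker), and NRXN3 (-2.90) at -2.22 (split at 5%). Leaving out 1 replicate gave -1.85 to -2.68 for LRRTM4 and -0.74 to -0.90 for DCC there, 3.67 to 3.72 for DCC between neurons and progenitors, and -0.46 to 2.66 for LRRTM4 by DLL3 or HES6. With 1 replicate no residual degrees of freedom remain, so these are values with no test and no counts of calls. The log2 ratio of replicate 2 to replicate 1 in neurons went from -1.23 to -0.99 for LRRTM4 and from -0.11 to -0.24 for DCC when thinned. Thinning to 1000 UMIs in place of 2000 gave mean shares of 21.6% and 19.5% of neurons for NRXN3 and DCC (28.0% and 27.6%), and 7.14% and 2.64% of progenitors (12.2% and 4.91%). The cause of these shifts was not tested.

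Signs also reversed for partners near 0. Between neurons and progenitors NLGN2 was at -0.15 (thinned), -0.15 (plain totals), -0.0043 (capped) and -0.0041 (cells of 10% or more), and -0.033 to 0.076 without a replicate; DSCAM was at -0.20 among cells of 10% or more; and GPC3 was at 0.0058, NEO1 at 0.036 and UNC5B at -0.27 among cells under 10%, with GPC3 at 0.24 without replicate 1. By DLL3 or HES6, NRXN2 was at 0.16 and 0.10 and LRRTM2 at 0.17 and 0.19 with a minimum of 2 UMIs and with 4 or more markers, LRRTM2 at 0.065 under 10%, and LRRTM3 at -0.051 with a minimum of 2 UMIs and -0.53 to 1.20 without a replicate. By ribosomal protein share in neurons UNC5D was at 0.21 (split at 5%) and NTN1 at -0.015 (plain totals).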

Other observations

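Other families of guidance molecules were tested between neurons and progenitors, where 27.0% of all genes were called higher and 25.4% lower in neurons. Of 9 slit and robo genes tested, 6 were higher in neurons and 2 lower: the receptor genes ROBO1 and ROBO3 rose by 3.11 (SE 0.10, edgeR adjusted p = 5.06e-17) and 5.63 (SE 0.45, adjusted p = 2.2e-10), and the ligand genes SLIT1 and SLIT2 fell by 0.58 (SE 0.13, adjusted p = 0.000774) and 1.18 (SE 0.10, adjusted p = 1.82e-09). Of 28 semaphorins, plexins and neuropilins, 15 were higher and 4 lower, with PLXNA4 up by 3.62 (SE 0.11, adjusted p = 2.61e-18) and SEMA3E at -1.39 (SE 0.43, adjusted p = 0.0298). Of 18 ephrins and Eph receptors 7 were higher and 5 lower, EPHA3 by 2.99 (SE 0.50, adjusted p = 0.0344) among the first and EPHA2 at -1.15 (SE 0.29, adjusted p = 0.00179) among the second. The L1 family and contactins, adhesion molecules of axons, had 10 of 12 higher and 0 lower, with NCAM2 at 5.84 (SE 0.15, adjusted p = 1.76e-19) and CNTN5 at 5.48 (SE 0.14, adjusted p = 1.76e-19). At high ribosomal protein share in neurons 10 of the 12 L1 and contactin genes were lower and 0 higher, as were 5 of 9 slit and robo genes with 0 higher and 13 of 29 semaphorin genes with 1 higher, while the Eph list had 5 of 19 higher and 10 lower, beside 30.4% of all genes higher and 26.6% lower.

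Between neurons without and with DLL3 or HES6 UMIs, the list of neuron subtype and neurogenic factors had 0 of 22 higher and 10 lower, beside 6.45% and 5.26% of all genes. INSM1, a zinc finger gene of neurogenesis, stood at 20.3 and 25.5 CPM without and 145 and 146 CPM with these UMIs (-2.71, SE 0.17, edgeR adjusted p = 1.88e-10), and NHLH1 was lower too (-2.42, SE 0.63, adjusted p = 0.013). CNTN2, which encodes the axonal adhesion protein TAG-1, was lower by 1.72 (log2 fold change -1.72, SE 0.32, adjusted p = 0.000608), as was CPLX2, a complexin of vesicle release (-0.90, SE 0.20, adjusted p = 0.00347). SLIT2 was higher (1.27, SE 0.13, adjusted p = 9.61e-07).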
